A study of Homo sapiens with 12 samples.

Results

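Transcripts of 41 genes of glycolysis and the hypoxia response, listed by gene symbol, were read in LNCaP cells, an established androgen-sensitive human prostate cancer line from a lymph node metastasis. The list was drawn up by function and holds 4 transporters of glucose or lactate, 16 glycolytic enzymes, 3 bifunctional regulators of phosphofructokinase, 3 genes of the pyruvate dehydrogenase step, 4 genes of hypoxia-inducible factor (HIF) and its oxygen sensors, and 11 HIF targets outside the glycolytic chain. The count table held 36137 gene symbols and all 41 members, of which 40 passed the filter on low counts. CA9 did not pass it.

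Each of 4 groups had 3 libraries of mRNA. Cells had received siRNA against PXN, the gene of the focal adhesion adaptor paxillin, followed by 2.5 nM dihydrotestosterone (DHT, a natural androgen), or PXN siRNA followed by the ethanol vehicle. The control cells had received non-specific siRNA with DHT, or non-specific siRNA with vehicle. Every group was transfected for 48 h, was then kept without serum for 12 h, and was exposed to DHT or vehicle for 24 h, so that siRNA transfection and serum starvation were common to all 12 libraries. The labels name no low-oxygen group, nor do they state that the 3 replicates are independent cultures. The p-values then reflect library-to-library spread, and that spread may be technical. The siRNA comparison asks which of these transcripts differ when paxillin mRNA is depleted, and the DHT comparison which differ after androgen.

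Glycolysis splits glucose into pyruvate through a chain of cytosolic enzymes, and lactate dehydrogenase turns pyruvate into lactate, which leaves the cell through monocarboxylate carriers. Pyruvate enters mitochondria instead when pyruvate dehydrogenase is active, and the PDK kinases switch that enzyme off. The alpha subunits of HIF are hydroxylated by the EGLN dioxygenases when oxygen is present and are then degraded through VHL. In low oxygen they persist and bind a short DNA core with their partner ARNT. Many glycolytic enzyme genes are themselves HIF targets, so the HIF targets outside the chain are kept apart here. Prostate cancer cells of the luminal type, such as LNCaP, are also known to change glucose metabolism in response to androgen.

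Promoter sequence is shown for the 3 members with the largest falls (LDHB, PFKFB3 and LDHA) and the 3 with the largest rises (P4HA2, KDM3A and EGLN3) under vehicle, among members that changed the same way with PXN siRNA under both treatments and have an entry, so that their letters can be set side by side. Each runs 5′ to 3′ from 250 bases before to 50 bases after a RefSeq start site on GRCh38.p14, and capitals mark every match, on either strand, to the HIF core in its forms ACGTG and GCGTG. The first form can overlap itself on the opposite strand, and such a pair counts as 2 matches. The windows lie at chr12:21657793-21658092 on the minus strand for LDHB, chr10:6144671-6144970 on the plus strand for PFKFB3 and chr11:18394313-18394612 on the plus strand for LDHA. Those of the rising genes lie at chr5:132227042-132227341 on the minus strand for P4HA2, chr2:86441121-86441420 on the plus strand for KDM3A and chr14:33951025-33951324 on the minus strand for EGLN3.
LDHB: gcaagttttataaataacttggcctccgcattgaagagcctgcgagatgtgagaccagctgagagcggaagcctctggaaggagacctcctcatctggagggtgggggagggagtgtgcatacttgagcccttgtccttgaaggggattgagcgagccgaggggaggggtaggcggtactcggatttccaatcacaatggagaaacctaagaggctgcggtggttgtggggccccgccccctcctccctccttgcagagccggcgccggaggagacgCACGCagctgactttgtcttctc
PFKFB3: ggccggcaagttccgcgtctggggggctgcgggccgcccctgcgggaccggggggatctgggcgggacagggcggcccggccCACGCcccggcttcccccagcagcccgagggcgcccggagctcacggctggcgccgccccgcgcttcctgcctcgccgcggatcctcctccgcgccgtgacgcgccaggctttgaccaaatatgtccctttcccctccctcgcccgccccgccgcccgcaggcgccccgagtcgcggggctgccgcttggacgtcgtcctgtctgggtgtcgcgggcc
LDHA: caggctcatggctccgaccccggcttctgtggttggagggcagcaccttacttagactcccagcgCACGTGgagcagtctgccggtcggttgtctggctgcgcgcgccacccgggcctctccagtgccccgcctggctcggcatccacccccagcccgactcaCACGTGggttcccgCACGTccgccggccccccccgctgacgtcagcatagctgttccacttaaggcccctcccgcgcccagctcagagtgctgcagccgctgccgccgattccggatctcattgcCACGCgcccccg
P4HA2: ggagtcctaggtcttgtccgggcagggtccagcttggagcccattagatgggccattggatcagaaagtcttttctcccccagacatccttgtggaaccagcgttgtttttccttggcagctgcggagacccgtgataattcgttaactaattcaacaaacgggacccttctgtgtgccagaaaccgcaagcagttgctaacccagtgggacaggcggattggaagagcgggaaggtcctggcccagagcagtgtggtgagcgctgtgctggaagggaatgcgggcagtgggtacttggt
KDM3A: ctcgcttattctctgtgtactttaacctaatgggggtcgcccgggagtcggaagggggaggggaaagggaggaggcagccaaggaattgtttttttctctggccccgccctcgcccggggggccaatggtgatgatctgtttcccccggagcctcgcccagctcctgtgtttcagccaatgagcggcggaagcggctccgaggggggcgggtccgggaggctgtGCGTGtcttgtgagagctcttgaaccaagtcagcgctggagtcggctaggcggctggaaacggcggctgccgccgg
EGLN3: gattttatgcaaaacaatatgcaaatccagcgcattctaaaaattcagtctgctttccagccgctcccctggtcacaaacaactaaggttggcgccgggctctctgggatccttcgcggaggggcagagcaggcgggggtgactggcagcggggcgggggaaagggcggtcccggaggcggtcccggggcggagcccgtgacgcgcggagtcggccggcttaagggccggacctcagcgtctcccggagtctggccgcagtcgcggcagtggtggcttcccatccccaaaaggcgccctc

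The LDHA window held 6 matches in 4 separate stretches, while LDHB, PFKFB3 and KDM3A held 1 each and P4HA2 and EGLN3 held none. A core was present in at least 1 window of 33 of the 36 members with an entry, against 52.4% of 27305 genes in the RefSeq table. A gene with several windows has more chances of a match, and HK1 and PFKM had 7 windows each. Of all 35116 windows of that table taken singly, 48.45% held a core. In the window nearest the start of the gene, HK1, PFKP, TPI1, PDK1, MXI1 and SLC16A3 held none but had a core in another window. PGAM1, P4HA2 and EGLN3 held none in their only window. Counting any window, a core was present for 18 of the 19 members that fell with PXN siRNA under both treatments. Of the 4 members that rose under both, 3 have an entry and 1 of these held a core. VEGFA, the other that rose, has no entry. A match is a description of letters and not of binding. No sequence is shown for SLC2A3, SLC16A1, PFKFB2, VEGFA and BNIP3L.

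Library totals ranged from 34321000 to 38633456 counts assigned to genes, and values are given as CPM, counts scaled to a common library size. PXN itself had 15.2, 21.2 and 14.9 CPM with PXN siRNA and 112, 106 and 108 CPM with non-specific siRNA under vehicle. Under DHT, PXN had 20.0, 18.1 and 16.6 CPM with PXN siRNA and 113, 99.7 and 104 CPM with non-specific siRNA. The siRNA labels therefore match the target mRNA, with log2 fold changes of -2.66 ± 0.11 (SE) under vehicle and -2.54 ± 0.11 under DHT (edgeR adjusted p = 7.73e-09 and 9.52e-09). Of the markers fixed for cell identity, 20 of 22 are in the table and none was at 0 in every library. Of the 14 tested, 2 were higher and 7 lower with PXN siRNA under vehicle. The 7 luminal markers summed to 2375 to 2773 CPM with PXN siRNA and 3607 to 4175 CPM with non-specific siRNA under vehicle, and KLK3 was lower with PXN siRNA (log2 fold change -2.21, edgeR adjusted p = 3.40e-06). Under DHT the luminal markers summed to 2919.8 to 3407 CPM with PXN siRNA and 6094 to 6414 CPM with non-specific siRNA. The summed basal and leukocyte markers stayed at or under 0.568 CPM in every library, the endothelial ones lay between 12.8 and 22.1 CPM, and the 6 stromal ones at 43.9 to 49.3 CPM with PXN siRNA and 32.8 to 40.5 CPM with non-specific siRNA under vehicle. COL1A1 made up most of the stromal sum, at 30.5 ± 2.07 CPM with PXN siRNA and 20.5 ± 1.82 CPM with non-specific siRNA, while COL3A1 averaged 3.94 ± 0.685 CPM with PXN siRNA and 6.86 ± 1.09 CPM with non-specific siRNA, and LUM 0.13 ± 0.0332 CPM and 0.596 ± 0.237 CPM in the same groups. Mitochondrially encoded genes took 8.43% ± 0.447 of counts with PXN siRNA and 5.72% ± 1.59 with non-specific siRNA under vehicle (SD, n = 3 each). The part of these shifts in the results was not tested, and in bulk RNA fewer cells and less RNA per cell cannot be told apart.

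The control libraries numbered 1 stood apart for these genes. The first DHT library with non-specific siRNA was the highest of its group for 31 of 40 tested members, 77.5% beside 34.7% of all tested genes, and the first vehicle library with non-specific siRNA was so for 24, 60% beside 32.4%. The shares for the first libraries with PXN siRNA were 37.5% beside 34.7% under DHT and 32.5% beside 31.2% under vehicle. These pool roles that differed. With PXN siRNA the first library was highest for 7 of 10 HIF targets under DHT and 6 under vehicle, and for all 4 HIF and sensor genes under each. It was highest for only 2 and 1 of the 16 enzymes. With non-specific siRNA it was highest for 9 and 8 HIF targets and for 13 and 10 enzymes under DHT and vehicle. CA12, BNIP3L, P4HA2, KDM3A, EGLN1 and SLC16A3 were highest in the library numbered 1 of all 4 groups, 15% of members beside 7.62% of all genes. Counts of enzymes and HIF targets called with PXN siRNA are therefore given also without these 4 libraries, an alternative chosen after seeing the data.

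With PXN siRNA most of the glycolytic chain fell and a few HIF targets rose. Under vehicle, 13 of the 16 enzymes fell and none rose, with a median log2 fold change of -0.62. Of the 10 tested HIF targets 4 rose and none was lower (median 0.21). Under DHT, 13 of 16 enzymes again fell (median -0.62), 3 HIF targets rose and 1 fell (median 0.25). Of all tested genes 23.9% were higher under vehicle and 25% under DHT, so 3 of 10 HIF targets under DHT is near that share. Of the 4 under vehicle, ANKRD37 lost its call in several fits that left out 1 library. All 3 genes of the pyruvate dehydrogenase step fell under both treatments, and none of the 4 transporter members passed the test under either. In all, 25 of 40 tested members passed edgeR's quasi-likelihood test at a Benjamini-Hochberg adjusted p under 0.05 under vehicle, 6 higher and 19 lower, where 50.2% of all 18468 tested genes passed, 23.9% higher and 26.3% lower. Under DHT 24 members passed, 4 higher and 20 lower, beside 51.8% of all genes, 25% higher and 26.7% lower. The median of all tested genes was 0.02 under vehicle and 0.03 under DHT.

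Most enzyme transcripts are abundant, and abundant genes leaned downward as a class. Of the 2425 tested genes averaging at least 100 CPM, 48.0% were lower and 17.4% higher with PXN siRNA under vehicle, with a median of -0.15; under DHT 51.8% were lower and 15.6% higher (median -0.18). At that level 12 of the 16 enzymes were found, of which 11 fell under vehicle and 11 under DHT. In all, 19 members were lower and 4 higher under both treatments, which is 47.5% and 10.0% of the members tested, against 23.1% and 19.5% of all tested genes. Upper quartile scaling moved the median of all genes to 0.12 under vehicle and 0.13 under DHT. It raised the share of higher genes among all calls to 60.2% and 60.7%, where TMM scaling gave 47.7% and 48.3%. With it 12 enzymes were lower in each comparison, and with cyclic loess 12 were lower under vehicle and 10 under DHT. Cyclic loess called 8971 of all tested genes under vehicle and 9111 under DHT, 49.66% and 49.68% of them higher. Without the 4 libraries numbered 1, 12 enzymes were lower and 5 HIF targets higher in each comparison, and no HIF target was lower. All genes called in that fit came to 38.8% under vehicle, 17.4% higher and 21.4% lower, and to 43% under DHT, 19.3% higher and 23.7% lower.

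**Figure D1:**
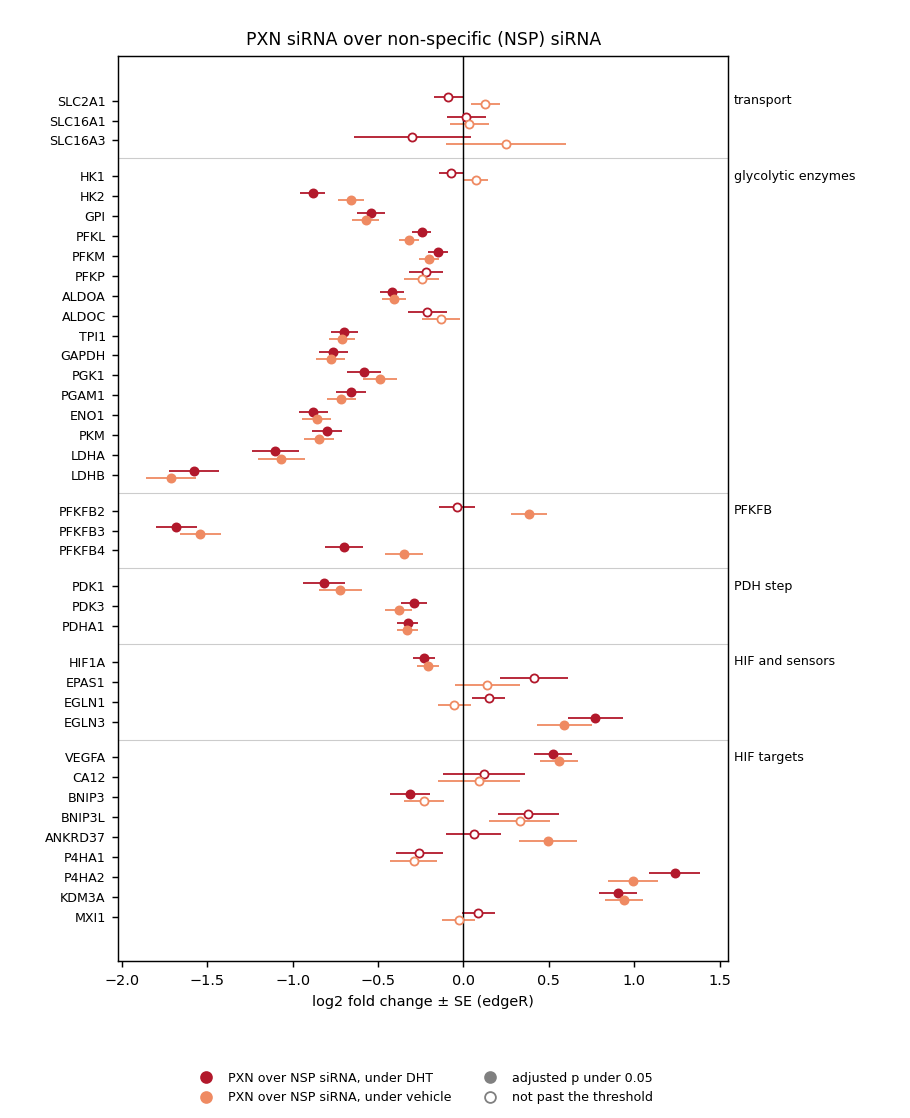
Log2 fold change of each member between PXN siRNA and non-specific siRNA, under DHT (dark red) and under vehicle (orange), with the standard error of the edgeR fit as bars and filled points for adjusted p under 0.05. SLC2A3 and ANGPTL4, which average under 1 CPM, and CA9 are not drawn. The 13 called enzymes lie left of 0 and P4HA2, KDM3A, EGLN3 and VEGFA right of it, under both treatments.

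The steepest falls among the enzymes were at the last step, where lactate dehydrogenase interconverts pyruvate and lactate. LDHB (GRCh38, chr12:21635342-21757857, minus strand), the subunit typical of heart muscle, had 85.0, 143 and 102 CPM with PXN siRNA and 349.5, 346 and 385 CPM with non-specific siRNA under vehicle. Under DHT, LDHB had 111, 134 and 107 CPM with PXN siRNA and 334, 341 and 375 CPM with non-specific siRNA. LDHB fell under both treatments with no overlap between groups, with log2 fold changes of -1.71 ± 0.15 (SE) under vehicle and -1.58 ± 0.14 under DHT (edgeR adjusted p = 4.66e-07 and 8.68e-07). Of its annotated exon bases, 33.4% are shared with another gene of the same strand, so its level is less certain. LDHA (chr11:18394388-18408425, plus strand), the subunit typical of skeletal muscle and a textbook HIF target, had 235, 318 and 270.3 CPM with PXN siRNA and 634, 526 and 566 CPM with non-specific siRNA under vehicle. Under DHT, LDHA had 299, 314 and 271 CPM with PXN siRNA and 793, 543 and 563 CPM with non-specific siRNA, the first library with non-specific siRNA standing above the other controls. LDHA fell without overlap under both treatments, with log2 fold changes of -1.07 ± 0.14 (SE) under vehicle and -1.10 ± 0.14 under DHT (edgeR adjusted p = 1.87e-05 and 1.30e-05).

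All 6 members between the triose phosphates and pyruvate fell. GAPDH, which oxidises glyceraldehyde phosphate, had 929.8, 1150.1 and 1047 CPM with PXN siRNA and 1799.6, 1712 and 1852 CPM with non-specific siRNA under vehicle. Under DHT, GAPDH had 985, 1106 and 1052 CPM with PXN siRNA and 1871, 1657 and 1806 CPM with non-specific siRNA. GAPDH is often taken as a reference gene; here it fell 1.72-fold under vehicle and 1.70-fold under DHT (edgeR adjusted p = 3.66e-06 and 4.16e-06), and the groups did not overlap. ENO1, the ubiquitous enolase, had 655, 822 and 742 CPM with PXN siRNA and 1338, 1319 and 1371 CPM with non-specific siRNA under vehicle. Under DHT, ENO1 had 709.5, 812 and 743 CPM with PXN siRNA and 1479, 1316 and 1371 CPM with non-specific siRNA. ENO1 fell without overlap, with log2 fold changes of -0.86 ± 0.08 (SE) under vehicle and -0.88 ± 0.08 under DHT (edgeR adjusted p = 1.63e-06 and 1.31e-06). The enolases ENO2 and ENO3, typical of neurons and of muscle, are on the wider list and rose, ENO2 with log2 fold changes of 0.85 ± 0.14 (SE) under vehicle and 0.97 ± 0.14 under DHT (edgeR adjusted p = 0.000167 and 5.08e-05) and ENO3 by 0.45 and 0.55 (adjusted p = 0.00830 and 0.00213). Both were named after their values were seen. PKM, the pyruvate kinase, had 579.8, 722 and 665 CPM with PXN siRNA and 1214, 1137 and 1188 CPM with non-specific siRNA under vehicle. Under DHT, PKM had 637, 694 and 657 CPM with PXN siRNA and 1275, 1049 and 1132 CPM with non-specific siRNA. PKM fell without overlap as well, with log2 fold changes of -0.85 ± 0.09 (SE) under vehicle and -0.80 ± 0.09 under DHT (edgeR adjusted p = 2.65e-06 and 4.32e-06). The gene makes more than 1 splice form, and gene counts do not separate them. Triose phosphate isomerase TPI1, the mutase PGAM1 and the kinase PGK1 fell by 0.71, 0.71 and 0.49 on the log2 scale under vehicle and by 0.70, 0.66 and 0.58 under DHT, with edgeR adjusted p of 0.000891 or less under vehicle and 0.000207 or less under DHT and no overlap between groups.

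At the early steps the isozymes did not move together. HK2, the hexokinase that many tumours induce, had 26.2, 31.0 and 29 CPM with PXN siRNA and 44.0, 46.6 and 45.4 CPM with non-specific siRNA under vehicle. Under DHT, HK2 had 34.1, 39.9 and 34.01 CPM with PXN siRNA and 64.5, 66.0 and 68.8 CPM with non-specific siRNA. HK2 fell without overlap under both treatments, with log2 fold changes of -0.66 ± 0.08 (SE) under vehicle and -0.88 ± 0.07 under DHT (edgeR adjusted p = 6.77e-06 and 4.56e-07). HK1, the ubiquitous hexokinase, had 141, 120.1 and 129 CPM with PXN siRNA and 129, 115 and 126 CPM with non-specific siRNA under vehicle. Under DHT, HK1 had 139, 129 and 129 CPM with PXN siRNA and 139.5, 132 and 147 CPM with non-specific siRNA. These HK1 groups overlapped and did not pass the test (log2 fold change 0.08 ± 0.07 and -0.07 ± 0.07 (SE), edgeR adjusted p = 0.394 and 0.400). With upper quartile scaling or cyclic loess HK1 was called higher under vehicle (adjusted p = 0.0459 and 0.0200). GPI, the isomerase after hexokinase, fell by 0.57 under vehicle and 0.54 under DHT on the log2 scale, without overlap (edgeR adjusted p = 3.76e-05 and 5.78e-05).

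Phosphofructokinase is the main control point of the chain and is built from liver, muscle and platelet subunits. PFKL, the liver subunit, had 172, 163 and 173 CPM with PXN siRNA and 219, 208 and 206 CPM with non-specific siRNA under vehicle. Under DHT, PFKL had 184, 191 and 184 CPM with PXN siRNA and 234, 215 and 214 CPM with non-specific siRNA. PFKL fell by small amounts without overlap, with log2 fold changes of -0.32 ± 0.06 (SE) under vehicle and -0.25 ± 0.06 under DHT (edgeR adjusted p = 0.000317 and 0.00230). With cyclic loess its value under DHT was -0.0618 and did not pass (adjusted p = 0.360). PFKM, the muscle subunit, had 184, 206 and 199 CPM with PXN siRNA and 225, 223 and 228 CPM with non-specific siRNA under vehicle. Under DHT, PFKM had 183, 193 and 199 CPM with PXN siRNA and 219, 209 and 209.7 CPM with non-specific siRNA. PFKM passed the test with log2 fold changes of -0.20 ± 0.06 (SE) under vehicle and -0.15 ± 0.06 under DHT (edgeR adjusted p = 0.0108 and 0.0441), but the call under DHT was lost without the first DHT library of either siRNA (adjusted p = 0.0825 without that of non-specific siRNA and 0.104 without that of PXN siRNA), and cyclic loess turned its direction under DHT. Under vehicle the call was lost with upper quartile scaling (0.148) or cyclic loess (0.535). PFKP, the platelet subunit, had 43.6, 46.0 and 46.5 CPM with PXN siRNA and 57.3, 53.7 and 50.5 CPM with non-specific siRNA under vehicle. Under DHT, PFKP had 50.4, 55.2 and 52.3 CPM with PXN siRNA and 74.9, 54.6 and 54.6 CPM with non-specific siRNA. For PFKP the groups overlapped under DHT but not under vehicle, and neither comparison passed (edgeR adjusted p = 0.0574 and 0.0819). With the replicate number as a block both passed (adjusted p = 0.0288 and 0.0486). PFKP also passed under vehicle without any 1 of 5 libraries, namely the third vehicle library and each DHT library of non-specific siRNA and the second DHT library of PXN siRNA (adjusted p = 0.00272 to 0.0498), and under DHT without the second or the third control library (0.0218 and 0.0259).

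Aldolase splits fructose bisphosphate, and its 2 measured forms differed in the test. ALDOA, the muscle form, had 783, 809 and 886 CPM with PXN siRNA and 1131, 1052 and 1098 CPM with non-specific siRNA under vehicle. Under DHT, ALDOA had 822, 846 and 873 CPM with PXN siRNA and 1199.8, 1061 and 1136 CPM with non-specific siRNA. ALDOA fell without overlap, with log2 fold changes of -0.41 ± 0.07 (SE) under vehicle and -0.42 ± 0.07 under DHT (edgeR adjusted p = 0.000228 and 0.000163). It shares 42.3% of its exon bases with another gene of the same strand in the annotation, so its level is less certain. With cyclic loess the ALDOA value under DHT was -0.16 and did not pass (adjusted p = 0.0571). ALDOC, the brain form, had 63.8, 71.5 and 77.8 CPM with PXN siRNA and 86.9, 71.3 and 75.0 CPM with non-specific siRNA under vehicle. Under DHT, ALDOC had 68.7, 70.1 and 77.8 CPM with PXN siRNA and 99.9, 71.7 and 79.2 CPM with non-specific siRNA. Those ALDOC groups overlapped and no difference passed the test (edgeR adjusted p = 0.357 and 0.131). Without the second DHT library of non-specific siRNA it was called under DHT (adjusted p = 0.0256).

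**Figure D2:**
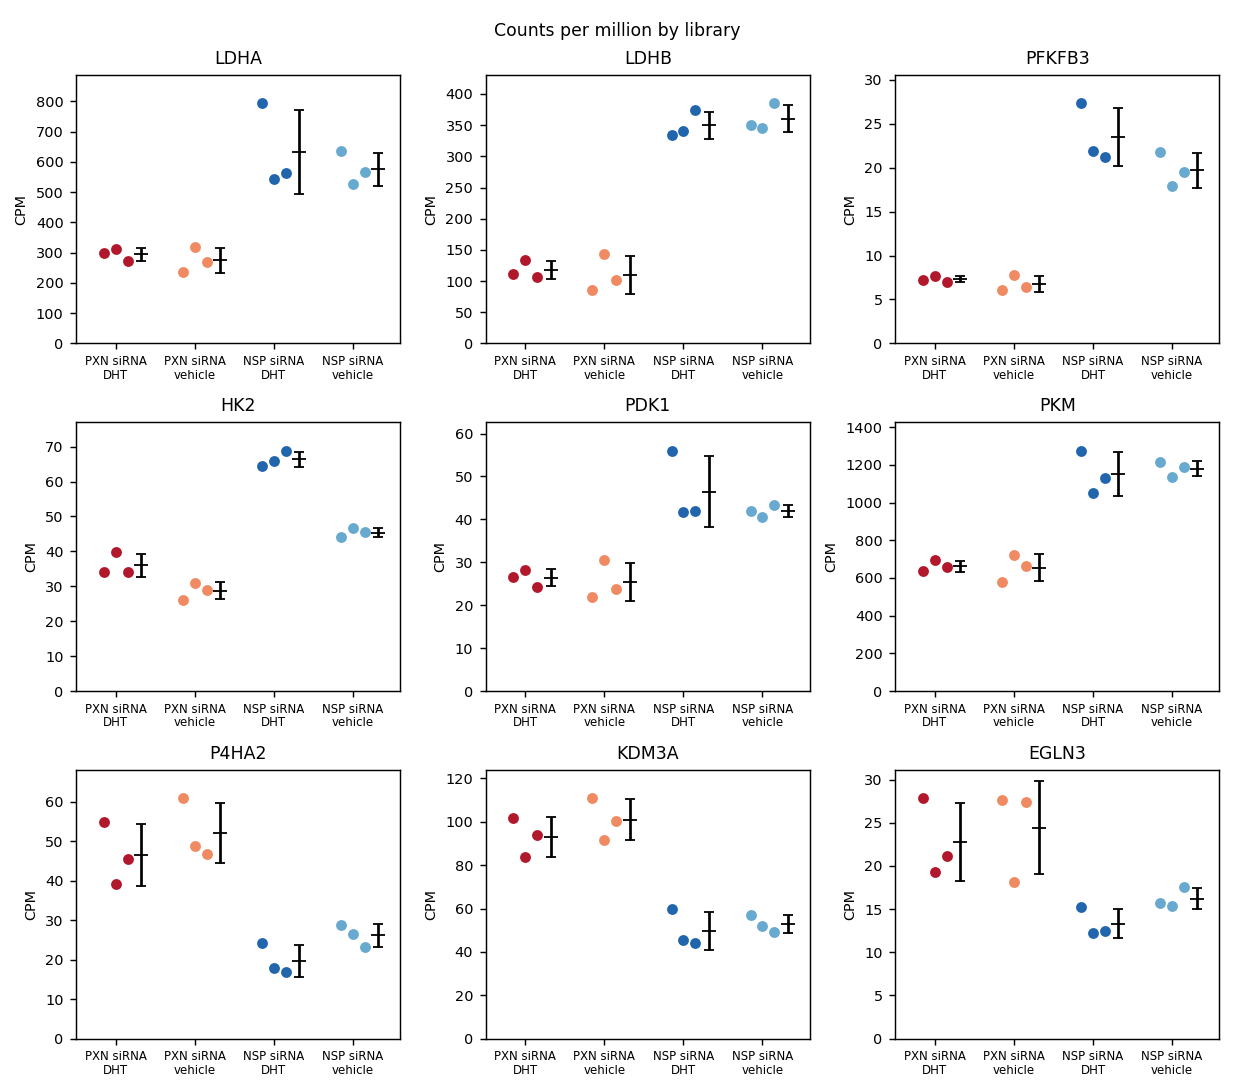
CPM of 9 members in each of the 12 libraries, from left to right PXN siRNA with DHT, PXN siRNA with vehicle, non-specific (NSP) siRNA with DHT and NSP siRNA with vehicle. Points are libraries 1 to 3 and the black mark is the mean ± SD. The PXN siRNA libraries lie below the NSP libraries for LDHA, LDHB, PFKFB3, HK2, PDK1 and PKM and above them for P4HA2, KDM3A and EGLN3.

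Summed over the 16 enzymes, glycolytic transcripts took 0.538%, 0.613% and 0.596% of all counts with PXN siRNA and 0.893%, 0.833% and 0.896% with non-specific siRNA under vehicle. Under DHT, the enzymes took 0.577%, 0.618% and 0.601% with PXN siRNA and 0.944%, 0.813% and 0.869% with non-specific siRNA. Every PXN siRNA library was below every control library. The 11 HIF targets summed to 1022, 905 and 955 CPM with PXN siRNA and 944, 754 and 742 CPM with non-specific siRNA under vehicle. Under DHT, they summed to 1009, 842 and 907 CPM with PXN siRNA and 979, 679 and 669 CPM with non-specific siRNA. Those sums overlapped between the siRNAs under both treatments, with the first control library of each treatment inside the PXN siRNA range. Among the libraries numbered 2 and 3, every PXN siRNA sum was above every control sum.

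**Figure D3:**
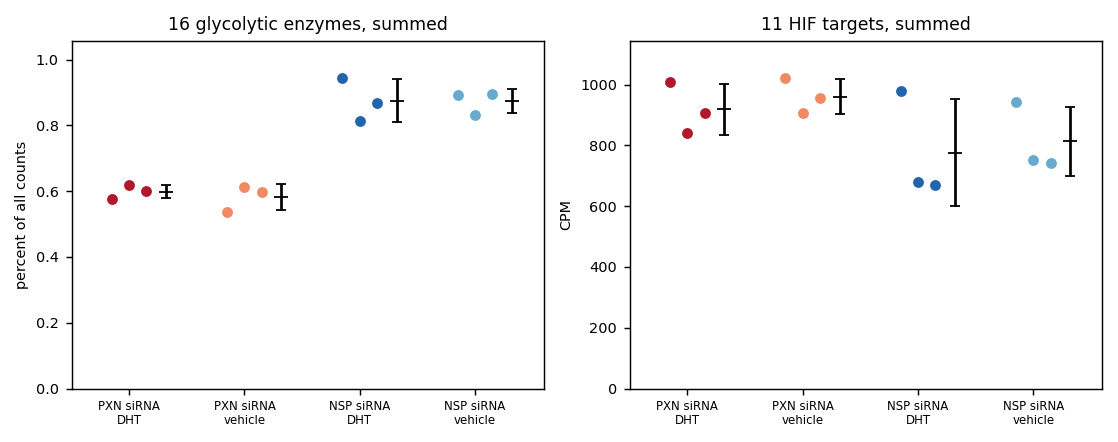
Summed counts of the 16 glycolytic enzymes as a percent of all counts (left) and summed CPM of the 11 HIF targets (right) in each library, with mean ± SD as black marks, in the order PXN siRNA with DHT, PXN siRNA with vehicle, NSP siRNA with DHT and NSP siRNA with vehicle. The enzyme share is lower in all 6 PXN siRNA libraries than in all 6 NSP libraries, while the HIF target sums overlap.

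The PFKFB enzymes make and break fructose bisphosphate's regulatory isomer, the strongest activator of phosphofructokinase, and their 3 measured genes differed in direction under vehicle. PFKFB3 (chr10:6144934-6254644, plus strand), the form with the strongest kinase activity and a HIF target, had 6.13, 7.78 and 6.38 CPM with PXN siRNA and 21.8, 17.9 and 19.5 CPM with non-specific siRNA under vehicle. Under DHT, PFKFB3 had 7.22, 7.67 and 7.05 CPM with PXN siRNA and 27.3, 21.9 and 21.2 CPM with non-specific siRNA. PFKFB3 fell 2.91-fold and 3.21-fold with no overlap, with log2 fold changes of -1.54 ± 0.12 (SE) under vehicle and -1.68 ± 0.12 under DHT (edgeR adjusted p = 2.41e-07 and 1.51e-07). PFKFB4, a form with a balanced kinase and phosphatase that HIF also induces, had 18.8, 18.4 and 18.9 CPM with PXN siRNA and 25.7, 22.4 and 23.4 CPM with non-specific siRNA under vehicle. Under DHT, PFKFB4 had 18.8, 19.8 and 19.8 CPM with PXN siRNA and 38.9, 28.5 and 27.4 CPM with non-specific siRNA. PFKFB4 fell without overlap, with log2 fold changes of -0.35 ± 0.11 (SE) under vehicle and -0.70 ± 0.11 under DHT (edgeR adjusted p = 0.0160 and 9.75e-05). The call under vehicle was lost without the first vehicle library of non-specific siRNA (adjusted p = 0.0565) and with upper quartile scaling (0.0681). PFKFB2, the heart form, had 58.2, 60.3 and 63.9 CPM with PXN siRNA and 45.2, 48.7 and 45.8 CPM with non-specific siRNA under vehicle. Under DHT, PFKFB2 had 58.9, 67.2 and 73.9 CPM with PXN siRNA and 55.9, 71.4 and 78.3 CPM with non-specific siRNA. PFKFB2 rose under vehicle without overlap (log2 fold change 0.39 ± 0.11 (SE), edgeR adjusted p = 0.00737), while under DHT the groups overlapped and the difference of -0.04 ± 0.10 did not pass (adjusted p = 0.771).

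At the pyruvate dehydrogenase step the kinase members PDK1 and PDK3 and the enzyme subunit were lower. PDK1, a kinase that inactivates the complex and a HIF target, had 21.9, 30.5 and 23.8 CPM with PXN siRNA and 41.9, 40.5 and 43.4 CPM with non-specific siRNA under vehicle. Under DHT, PDK1 had 26.7, 28.3 and 24.3 CPM with PXN siRNA and 56.0, 41.6 and 41.9 CPM with non-specific siRNA. PDK1 fell without overlap under both treatments, with log2 fold changes of -0.72 ± 0.13 (SE) under vehicle and -0.82 ± 0.12 under DHT (edgeR adjusted p = 0.000249 and 8.11e-05). PDK3, another of these kinases, and PDHA1, which encodes the alpha subunit of the first enzyme of the complex, fell by 0.38 and 0.33 on the log2 scale under vehicle and by 0.29 and 0.33 under DHT, without overlap (edgeR adjusted p of 0.000879 and 0.000468, then 0.00550 and 0.000476). Another gene lies across 21.3% of the PDHA1 exon bases on the other strand, and whether counting used the strand is not known here. Without the 4 libraries numbered 1, PDK3 did not pass under DHT (adjusted p = 0.0924). A further kinase, PDK2 of the wider list, named after its values were seen, rose under DHT by 0.21 and had 0.15 under vehicle (adjusted p = 0.0179 and 0.0713).

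None of the 4 transporter members passed the test with PXN siRNA. Of the other glucose carriers on the wider list, named after their values were seen, SLC2A6 fell under both treatments (-0.52 under vehicle and -0.45 under DHT), and SLC2A4 and SLC2A12 fell under DHT (-0.75 and -0.29), each with an edgeR adjusted p of 0.0422 or less. Under vehicle SLC2A4 and SLC2A12 did not pass (-0.35 and 0.16). SLC2A8 (0.003 under vehicle and 0.13 under DHT) and SLC2A13 (0.11 and 0.21) passed under neither treatment. SLC2A1, the glucose carrier GLUT1, had 87.1, 83.6 and 75.8 CPM with PXN siRNA and 79.2, 79.3 and 67.1 CPM with non-specific siRNA under vehicle. Under DHT, SLC2A1 had 89.6, 83.3 and 77.2 CPM with PXN siRNA and 96.5, 87.7 and 81.7 CPM with non-specific siRNA. Those SLC2A1 groups overlapped, and the log2 fold changes of 0.13 ± 0.09 and -0.09 ± 0.09 (SE) did not pass (edgeR adjusted p = 0.231 and 0.408). SLC2A1 was called higher under vehicle with the replicate block (adjusted p = 0.0250), upper quartile scaling (0.0397) or cyclic loess (0.0304). SLC16A1, the lactate carrier MCT1, had 159, 222 and 178 CPM with PXN siRNA and 178, 196 and 173 CPM with non-specific siRNA under vehicle. Under DHT, SLC16A1 had 159, 199 and 172 CPM with PXN siRNA and 192, 171 and 161 CPM with non-specific siRNA. SLC16A3, the carrier MCT4 known for lactate export, had 3.84, 2.75 and 3.06 CPM with PXN siRNA and 3.47, 2.43 and 2.22 CPM with non-specific siRNA under vehicle. Under DHT, SLC16A3 had 3.83, 3.49 and 2.93 CPM with PXN siRNA and 7.52, 2.82 and 2.26 CPM with non-specific siRNA, with 1 control library above all others. Both lactate carriers overlapped between groups and did not pass (edgeR adjusted p = 0.823 and 0.916 for SLC16A1, 0.584 and 0.485 for SLC16A3). SLC2A3, the glucose carrier GLUT3, was close to absent, with 0, 1 and 0 counts with PXN siRNA and 1, 2 and 0 counts with non-specific siRNA under vehicle. Under DHT, SLC2A3 had 1, 9 and 11 counts with PXN siRNA and 3, 16 and 31 counts with non-specific siRNA, which did not pass (edgeR adjusted p = 0.138, 0.0261 with the replicate block and 0.0202 without the first control library). Rows named as its pseudogenes held 84.0% as many counts as SLC2A3 itself, so its few counts are uncertain.

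Of the HIF subunits and oxygen sensors, the sensor EGLN3 rose and HIF1A fell slightly. EGLN3 (chr14:33924231-34462774, minus strand), the dioxygenase PHD3 and itself a HIF target, had 27.7, 18.2 and 27.4 CPM with PXN siRNA and 15.7, 15.3 and 17.6 CPM with non-specific siRNA under vehicle. Under DHT, EGLN3 had 27.8, 19.3 and 21.1 CPM with PXN siRNA and 15.3, 12.2 and 12.5 CPM with non-specific siRNA. EGLN3 rose without overlap, with log2 fold changes of 0.59 ± 0.16 (SE) under vehicle and 0.77 ± 0.16 under DHT (edgeR adjusted p = 0.00675 and 0.00108). EGLN1, the main sensor PHD2, had 77.0, 69.6 and 74.3 CPM with PXN siRNA and 80.3, 69.9 and 78.8 CPM with non-specific siRNA under vehicle. Under DHT, EGLN1 had 75.6, 62.5 and 66.2 CPM with PXN siRNA and 71.2, 57.4 and 55.8 CPM with non-specific siRNA. For EGLN1 the groups overlapped and did not pass (edgeR adjusted p = 0.669 and 0.212), but under DHT it was called higher with the replicate block (adjusted p = 0.0359), with cyclic loess or upper quartile scaling, and without the first control library (0.0346). HIF1A, which encodes HIF-1 alpha, averaged 166 ± 5.63 CPM with PXN siRNA and 192 ± 12.7 CPM with non-specific siRNA under vehicle, and 155 ± 9.74 CPM with PXN siRNA and 182 ± 6.35 CPM with non-specific siRNA under DHT (SD, n = 3). HIF1A fell without overlap, with log2 fold changes of -0.21 ± 0.07 (SE) under vehicle and -0.23 ± 0.07 under DHT (edgeR adjusted p = 0.0153 and 0.00869). Both calls were lost with cyclic loess and with upper quartile scaling (adjusted p = 0.162 and 0.105), and that under vehicle without the first control library (0.0581). EPAS1, which encodes HIF-2 alpha, averaged 2.88 ± 0.856 CPM with PXN siRNA and 2.62 ± 0.0977 CPM with non-specific siRNA under vehicle and did not pass under either treatment (edgeR adjusted p = 0.569 and 0.0946). Its difference under DHT passed as higher with the replicate block (adjusted p = 0.0429), with upper quartile scaling (0.0426) and without the first vehicle library of PXN siRNA (0.0477). HIF alpha subunits are controlled chiefly as proteins, which these libraries do not measure.

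Of the HIF targets outside glycolysis, P4HA2, KDM3A and VEGFA rose under both treatments. P4HA2 (chr5:132191838-132295315, minus strand), a catalytic subunit of collagen prolyl hydroxylase, had 60.8, 48.7 and 46.6 CPM with PXN siRNA and 28.8, 26.4 and 23.1 CPM with non-specific siRNA under vehicle. Under DHT, P4HA2 had 54.8, 39.3 and 45.5 CPM with PXN siRNA and 24.3, 17.9 and 16.9 CPM with non-specific siRNA. P4HA2 rose 1.99-fold under vehicle and 2.36-fold under DHT without overlap, with log2 fold changes of 0.99 ± 0.15 (SE) under vehicle and 1.24 ± 0.15 under DHT (edgeR adjusted p = 6.47e-05 and 1.01e-05). Its paralogue P4HA1 had 69.3, 76.5 and 70.1 CPM with PXN siRNA and 102, 84.9 and 77.7 CPM with non-specific siRNA under vehicle. Under DHT, P4HA1 had 70.6, 63.3 and 64.2 CPM with PXN siRNA and 102, 71.4 and 63.5 CPM with non-specific siRNA. P4HA1 groups overlapped under DHT but not under vehicle and did not pass (log2 fold change -0.29 ± 0.14 and -0.26 ± 0.14 (SE), edgeR adjusted p = 0.0940 and 0.134). With the replicate block both passed as lower (adjusted p = 0.0207 and 0.0417), and so did that under vehicle without the first or the third DHT library of non-specific siRNA (0.00998 and 0.0462) and that under DHT without the third (0.0218). KDM3A (chr2:86440647-86492716, plus strand), a histone demethylase, had 111, 91.8 and 100.3 CPM with PXN siRNA and 57.2, 51.8 and 49.0 CPM with non-specific siRNA under vehicle. Under DHT, KDM3A had 102, 83.6 and 94.0 CPM with PXN siRNA and 59.9, 45.5 and 43.9 CPM with non-specific siRNA. KDM3A rose without overlap, with log2 fold changes of 0.94 ± 0.11 (SE) under vehicle and 0.90 ± 0.11 under DHT (edgeR adjusted p = 1.03e-05 and 1.35e-05). VEGFA, the angiogenic growth factor, had 175, 155 and 162 CPM with PXN siRNA and 111, 126 and 96.3 CPM with non-specific siRNA under vehicle. Under DHT, VEGFA had 179.7, 163 and 184 CPM with PXN siRNA and 143, 121 and 103 CPM with non-specific siRNA. VEGFA rose without overlap too, with log2 fold changes of 0.56 ± 0.11 (SE) under vehicle and 0.52 ± 0.11 under DHT (edgeR adjusted p = 0.000758 and 0.00123).

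The mitophagy receptors BNIP3 and BNIP3L, both HIF targets, differed from each other. BNIP3 had 142, 142 and 149 CPM with PXN siRNA and 189, 152 and 167 CPM with non-specific siRNA under vehicle. Under DHT, BNIP3 had 158, 142 and 145 CPM with PXN siRNA and 229, 158 and 166 CPM with non-specific siRNA. BNIP3 did not pass under vehicle (log2 fold change -0.23 ± 0.12 (SE), edgeR adjusted p = 0.118, 0.0252 with the replicate block, 0.0489 without the second vehicle library and 0.0167 without the first DHT library of non-specific siRNA) and fell under DHT (-0.31 ± 0.12, adjusted p = 0.0363). The groups overlapped under DHT, and that call was lost without the first control library (adjusted p = 0.198) or without the second or the third PXN siRNA library (0.0856 and 0.0841), and with upper quartile scaling (0.138). BNIP3L had 308, 254 and 289.5 CPM with PXN siRNA and 286, 187 and 204 CPM with non-specific siRNA under vehicle. Under DHT, BNIP3L had 298, 228 and 254 CPM with PXN siRNA and 264, 164 and 172 CPM with non-specific siRNA. Its groups overlapped, with the first control library high under each treatment, and neither difference passed (0.33 ± 0.18 and 0.38 ± 0.18, edgeR adjusted p = 0.139 and 0.0871). With the replicate block BNIP3L was called higher in both (adjusted p = 0.00101 and 0.000307), as it was without the first control library (0.0257 and 0.00473).

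CA12, a carbonic anhydrase of the cell surface, had 80.0, 62.6 and 59.2 CPM with PXN siRNA and 83.8, 56.5 and 49.5 CPM with non-specific siRNA under vehicle. Under DHT, CA12 had 72.2, 52.0 and 50.8 CPM with PXN siRNA and 78.4, 42.5 and 40.0 CPM with non-specific siRNA. The groups overlapped and did not pass (edgeR adjusted p = 0.780 and 0.699). Without the 4 libraries numbered 1, CA12 was called higher under DHT (0.0108). CA9, the carbonic anhydrase most often used as a hypoxia marker, had 0 counts in 9 of the 12 libraries. The remaining libraries had 1 count with PXN siRNA under DHT, and 4 and 2 with non-specific siRNA under DHT and vehicle, each in the library numbered 1. A count of 0 allows a level of up to 0.0892 CPM (3 counts, counting error only). ANKRD37, an ankyrin repeat gene, averaged 3.08 ± 0.297 CPM with PXN siRNA and 2.19 ± 0.437 CPM with non-specific siRNA and rose under vehicle (0.49 ± 0.17, edgeR adjusted p = 0.0246), a call that was lost without any 1 of 4 single libraries (adjusted p = 0.113 and 0.0582 without the first and the third with PXN siRNA, 0.120 and 0.0778 without the second and the third with non-specific siRNA). Another gene lies across 35.2% of its exon bases on the other strand. ANGPTL4, a secreted inhibitor of lipoprotein lipase, averaged 0.419 ± 0.0819 CPM with PXN siRNA and 0.418 ± 0.225 CPM with non-specific siRNA under vehicle and did not pass, and neither did MXI1, a partner of MAX that opposes MYC, at 72.7 ± 2.26 CPM and 74.1 ± 8.397 CPM in the same groups (SD, n = 3).

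The balance between some related genes also differed. Ratios were taken within each library from CPM per kilobase of annotated exon, and the size of a ratio depends on the length used while its change between groups does not. LDHA over LDHB was 1.33, 1.07 and 1.28 with PXN siRNA and 0.872, 0.729 and 0.706 with non-specific siRNA under vehicle, without overlap. Under DHT, this ratio was 1.29, 1.13 and 1.22 with PXN siRNA and 1.14, 0.764 and 0.722 with non-specific siRNA, and the first control library lay among the PXN siRNA values. HK1 over HK2 was 5.20, 3.73 and 4.28 with PXN siRNA and 2.83, 2.38 and 2.67 with non-specific siRNA under vehicle. Under DHT, HK1 over HK2 was 3.93, 3.12 and 3.66 with PXN siRNA and 2.08, 1.93 and 2.06 with non-specific siRNA. Every PXN siRNA library lay above every control library of its treatment. P4HA1 over P4HA2 was 3.13, 4.31 and 4.13 with PXN siRNA and 9.71, 8.84 and 9.24 with non-specific siRNA under vehicle. Under DHT, P4HA1 over P4HA2 was 3.54, 4.43 and 3.88 with PXN siRNA and 11.5, 10.9 and 10.3 with non-specific siRNA. PFKFB2 over PFKFB3 averaged 5.45 ± 0.712 with PXN siRNA and 1.43 ± 0.197 with non-specific siRNA under vehicle (SD, n = 3), and BNIP3L over BNIP3 2.43 ± 0.238 and 1.64 ± 0.201. Of the 13 ratios computed, 9 did not overlap between siRNAs under vehicle and 8 under DHT, and those above were chosen after their values were seen. The share for other gene pairs was not computed, so these counts do not set the 13 pairs apart. Of single genes, 50.2% of all tested were called with PXN siRNA under vehicle and 51.8% under DHT. The ratios PFKL over PFKP, PFKM over PFKP and SLC16A1 over SLC16A3 overlapped under both treatments, PFKL over PFKM under vehicle, and ALDOA over ALDOC and LDHA over LDHB under DHT. With 3 libraries against 3, a two-sided exact permutation test of a single ratio cannot go below p = 0.1.

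**Figure D4:**
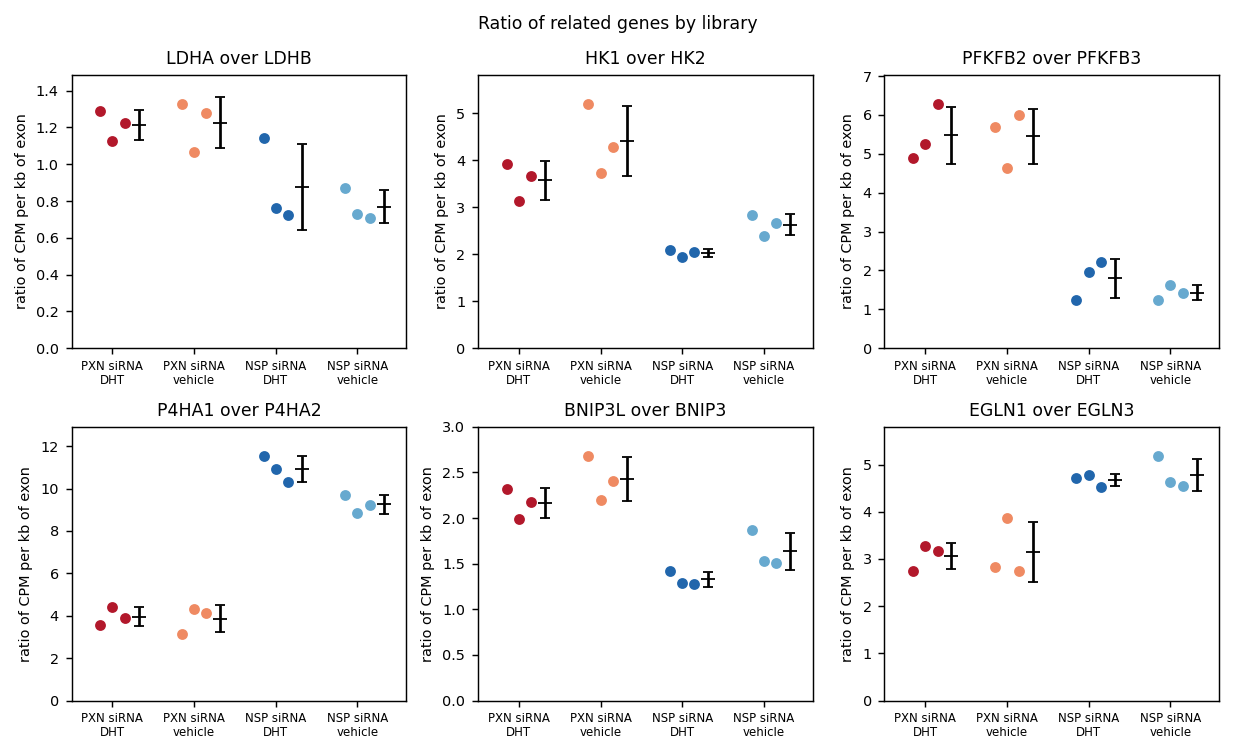
Ratio of CPM per kilobase of exon between related genes in each library, in the order PXN siRNA with DHT, PXN siRNA with vehicle, NSP siRNA with DHT and NSP siRNA with vehicle, with mean ± SD as black marks. The 6 panels show pairs chosen from the 13 after their values were seen, and in each the PXN siRNA and NSP libraries separate under vehicle, with the ratios of LDHA over LDHB, HK1 over HK2, PFKFB2 over PFKFB3 and BNIP3L over BNIP3 higher and those of P4HA1 over P4HA2 and EGLN1 over EGLN3 lower with PXN siRNA.

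Per kilobase of annotated exon, GAPDH was the most abundant member, at 349.6 ± 37.0 CPM per kb with PXN siRNA and 599.8 ± 23.7 CPM per kb with non-specific siRNA under vehicle (SD, n = 3). By this length TPI1, ALDOA and ENO1 followed with non-specific siRNA, at 288 ± 13.4, 279 ± 10.1 and 255 ± 4.94 CPM per kb, and TPI1 and ALDOA differed by less than their SD. With mean transcript length in place of exon length, ENO1 came second. The most abundant HIF target outside the chain was BNIP3L, at 65.9 ± 6.43 CPM per kb with PXN siRNA and 52.5 ± 12.3 CPM per kb with non-specific siRNA under vehicle, in overlapping groups.

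Other genes of the pathway were read from a wider list. Of 33 tested genes of glycolytic branches and their control, 7 rose and 12 fell with PXN siRNA under vehicle, with a median log2 fold change of -0.08. Under DHT 8 rose and 14 fell (median -0.11). Of all tested genes 23.9% were higher and 26.3% lower under vehicle and 25% and 26.7% under DHT. MYC, a transcription factor that binds many glycolytic genes, averaged 114 ± 19.4 CPM with PXN siRNA and 253 ± 5.49 CPM with non-specific siRNA under vehicle (log2 fold change -1.15 ± 0.11 (SE), edgeR adjusted p = 1.29e-06). TKT, the transketolase of the pentose phosphate path, averaged 392 ± 60.5 CPM with PXN siRNA and 773 ± 52.1 CPM with non-specific siRNA (-0.98 ± 0.11, adjusted p = 3.76e-06). PDP1, the phosphatase that reactivates pyruvate dehydrogenase, averaged 41.6 ± 3.08 CPM with PXN siRNA and 22.7 ± 1.02 CPM with non-specific siRNA under vehicle and 33.97 ± 4.99 CPM with PXN siRNA and 15.7 ± 1.22 CPM with non-specific siRNA under DHT (0.87 ± 0.10 and 1.11 ± 0.10). PDP1 rose under both treatments, while PDK1 and PDK3 fell and PDK2 did not fall. PDP2, the other such phosphatase on the list, fell under both (-0.62 and -0.75, edgeR adjusted p = 0.00015 and 2.7e-05). PDP2 averaged 47.7 ± 6.82 CPM with PXN siRNA and 73.5 ± 5.42 CPM with non-specific siRNA under vehicle. The further genes of the complex PDHB, DLAT and DLD fell under both as well, and PDHX did not pass. PDP2 and these genes were named after their values were seen. Under DHT, MPC2, a subunit of the mitochondrial pyruvate carrier, averaged 159 ± 26.5 CPM with PXN siRNA and 363 ± 58.6 CPM with non-specific siRNA (-1.19 ± 0.13, adjusted p = 4.13e-06), and MYC fell there as well (-1.13 ± 0.11).

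Of 27 tested genes of the HIF machinery and further targets, 10 rose and 10 fell under vehicle (median -0.02), and 9 rose and 10 fell under DHT (median -0.14), beside 50.2% and 51.8% of all tested genes called. That list had no common direction. HMOX1, the heme oxygenase, averaged 43.7 ± 12.5 CPM with PXN siRNA and 8.55 ± 0.938 CPM with non-specific siRNA under vehicle and 46.8 ± 8.29 CPM with PXN siRNA and 8.22 ± 0.971 CPM with non-specific siRNA under DHT (2.35 ± 0.19 and 2.51 ± 0.19, edgeR adjusted p = 2.95e-07 and 2.00e-07). VLDLR, a lipoprotein receptor, rose under vehicle to 49.1 ± 6.15 CPM with PXN siRNA, against 21.9 ± 1.63 CPM with non-specific siRNA (1.17 ± 0.12), and WSB1, a ubiquitin ligase adaptor, averaged 103 ± 5.59 CPM with PXN siRNA and 62.9 ± 2.67 CPM with non-specific siRNA under vehicle and 102 ± 5.52 CPM with PXN siRNA and 62.0 ± 5.70 CPM with non-specific siRNA under DHT (0.71 ± 0.07 and 0.72 ± 0.07). AK4, an adenylate kinase of mitochondria, averaged 106 ± 3.11 CPM with PXN siRNA and 163 ± 6.13 CPM with non-specific siRNA under DHT (-0.63 ± 0.06, adjusted p = 1.90e-06).

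Few members changed with DHT. With non-specific siRNA, 4 of 40 tested members rose after DHT and none fell, beside 4.87% of all tested genes called, 2.72% higher and 2.16% lower. They were HK2, PFKFB2, PFKFB4 and, on very few counts, SLC2A3. HK2 had 64.5, 66.0 and 68.8 CPM with DHT and 44.0, 46.6 and 45.4 CPM with vehicle with non-specific siRNA, and it rose without overlap (log2 fold change 0.55 ± 0.07 (SE), edgeR adjusted p = 0.000584). PFKFB2 had 55.9, 71.4 and 78.3 CPM with DHT and 45.2, 48.7 and 45.8 CPM with vehicle in the same cells and also rose without overlap (0.56 ± 0.11, adjusted p = 0.00636). PFKFB4 had 38.9, 28.5 and 27.4 CPM with DHT and 25.7, 22.4 and 23.4 CPM with vehicle and rose without overlap (0.41 ± 0.11, adjusted p = 0.0427), but the call was lost without any 1 of 9 libraries, namely each vehicle library and the first DHT library of non-specific siRNA, and the first and the third vehicle and each DHT library of PXN siRNA (adjusted p = 0.0519 to 0.134). SLC2A3 had 3, 16 and 31 counts with DHT and 1, 2 and 0 counts with vehicle (adjusted p = 0.0367). It did not pass with limma-voom (0.101), had no adjusted p in DESeq2, and was lost without any 1 of 7 libraries, namely each vehicle library and the second and the third DHT libraries of non-specific siRNA, and the second and the third vehicle libraries of PXN siRNA (0.0502 to 0.200). Of the enzymes and HIF targets only HK2 was called, and the median log2 fold change was 0.05 over the 16 enzymes and -0.12 over the 10 tested HIF targets, beside -0.01 over all tested genes.

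With the replicate number as a block, 10 members passed in these cells, 7 higher and 3 lower, where 12.1% of all tested genes passed, 6.17% higher and 5.93% lower. Those added were SLC2A1 (log2 fold change 0.24 ± 0.09 (SE) in the fit without the block, edgeR adjusted p = 0.153 without and 0.00239 with it), HK1 (0.0277 with it) and ANKRD37 (0.0169) as higher, and EGLN1 (0.00140), P4HA2 (0.00141) and MXI1 (0.0482) as lower. SLC2A1 had 96.5, 87.7 and 81.7 CPM with DHT and 79.2, 79.3 and 67.1 CPM with vehicle with non-specific siRNA, and EGLN1 had 71.2, 57.4 and 55.8 CPM with DHT and 80.3, 69.9 and 78.8 CPM with vehicle. P4HA2 had 24.3, 17.9 and 16.9 CPM with DHT and 28.8, 26.4 and 23.1 CPM with vehicle, the first DHT library standing at the level of the vehicle libraries. Without that library 7 members passed, 3 higher and 4 lower, beside 7.19% of all genes, 3.61% higher and 3.58% lower, the 4 being EGLN1, P4HA1, P4HA2 and MXI1 (edgeR adjusted p = 0.00864, 0.0330, 0.0259 and 0.0288). Without the first vehicle library ANKRD37 passed as higher (0.0414). In the edgeR fit of all 12 libraries with the low-count filter and no block none of these genes passed. Without that filter EGLN1 and P4HA2 passed (adjusted p = 0.0413 and 0.0441), and ANKRD37 passed with DESeq2 (adjusted p = 0.0384).

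With PXN siRNA, no member passed after DHT, beside 0.184% of all tested genes called, 0.184% higher and 0% lower. Of the 40 tested members, 3 had an unadjusted p under 0.05 (HK2, PFKL and SLC2A3), beside 1378 of all 18468 tested genes. DESeq2 called 1 member and 143 genes in all, and limma-voom 0 members and 24 genes. HK2 had 34.1, 39.9 and 34.01 CPM with DHT and 26.2, 31.0 and 29 CPM with vehicle in these cells, which did not overlap, and its log2 fold change of 0.33 ± 0.08 (SE) did not pass (edgeR adjusted p = 0.131). HK2 was the member called by DESeq2 (0.0215), and it was called with no low-count filter (0.0488) and with the replicate block (0.00881). PFKFB2 had 58.9, 67.2 and 73.9 CPM with DHT and 58.2, 60.3 and 63.9 CPM with vehicle and PFKFB4 had 18.8, 19.8 and 19.8 CPM with DHT and 18.8, 18.4 and 18.9 CPM with vehicle, with overlapping groups for both (log2 fold change 0.13 ± 0.10 and 0.06 ± 0.11, adjusted p = 0.876 and 0.955). SLC2A3 had 1, 9 and 11 counts with DHT and 0, 1 and 0 counts with vehicle, and passed only with the replicate block (0.0429, against 0.468 without it). The enzymes as a list had a median log2 fold change of 0.03 and the HIF targets one of -0.11, beside -0.01 over all tested genes.

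**Figure D5:**
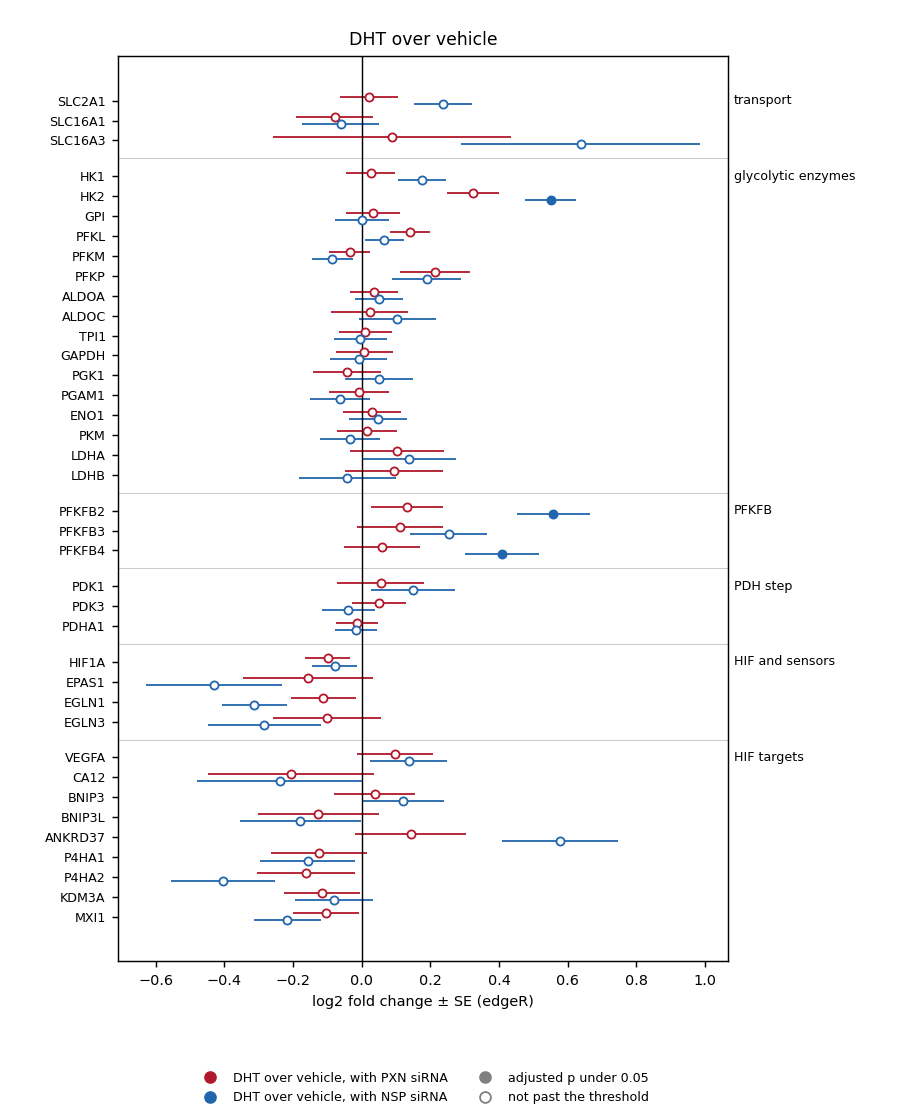
Log2 fold change of each member between DHT and vehicle, with PXN siRNA and with NSP siRNA, with the standard error of the edgeR fit as bars and filled points for adjusted p under 0.05. HK2, PFKFB2 and PFKFB4 are filled with NSP siRNA, no member is filled with PXN siRNA, and SLC2A3, ANGPTL4 and CA9 are not drawn.

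Whether DHT acted differently under the 2 siRNAs was tested as an interaction, and no member and 0% of all tested genes passed in edgeR. At an unadjusted p under 0.05 there were 2 members and 778 genes in all. DESeq2 called 37 genes and no member, and limma-voom none. The 2 members were PFKFB2, whose DHT effect was lower with PXN siRNA by 0.43 ± 0.15 on the log2 scale, and PFKFB4, lower by 0.35 ± 0.15 (SE, edgeR adjusted p = 1.00 for both). The different calls for DHT with the 2 siRNAs are thus not shown to be different effects.

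On the wider lists, DHT with non-specific siRNA raised 3 and lowered 1 of the 33 branch genes, and raised 3 and lowered 1 of the 27 HIF genes, beside 2.72% and 2.16% of all tested genes. With PXN siRNA none passed. MPC2 averaged 363 ± 58.6 CPM with DHT and 221 ± 11.6 CPM with vehicle (log2 fold change 0.71 ± 0.13 (SE), edgeR adjusted p = 0.00454), and SLC2A12, a glucose carrier, 93.1 ± 4.32 CPM with DHT and 61.8 ± 13.1 CPM with vehicle (0.59 ± 0.11). PDP1 averaged 15.7 ± 1.22 CPM with DHT and 22.7 ± 1.02 CPM with vehicle (-0.53 ± 0.10, adjusted p = 0.00659). Of the HIF genes, the histone demethylase KDM4B averaged 131 ± 4.56 CPM with DHT and 98.1 ± 1.87 CPM with vehicle (0.41 ± 0.06), AK4 163 ± 6.13 CPM with DHT and 136 ± 9.85 CPM with vehicle (0.26 ± 0.06), and ARNT, the partner of the HIF alpha subunits, 80.7 ± 6.74 CPM with DHT and 99.7 ± 4.75 CPM with vehicle (-0.30 ± 0.06), all called (adjusted p of 0.0263 or less).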

How the data were processed

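The deposited values are raw counts, used unchanged for 12 libraries in 4 groups: the authors counted reads per gene symbol with featureCounts (Subread 1.5.0p3) after Trimmomatic 0.32 and STAR 2.4.2a on GRCh38, per the submitters' processing notes. Per the labels' protocols, RNA was isolated with RNeasy Plus Mini kits and TruSeq Stranded mRNA kits were used. The annotation, the strand setting and the treatment of multiply mapped reads were not given in the sources used here, so counts of overlapping or paralogous genes are less certain. No replicate pair was within sampling noise (chi-square per gene 6.03 to 26.6), and 1 CPM stands for 33.7 to 38.3 counts.

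In R 4.3.3 with edgeR 4.0.16, genes were kept by filterByExpr (18468 of 36137), scaled by TMM and fitted with 4 group means (8 residual degrees of freedom). The quasi-likelihood test is two-sided with Benjamini-Hochberg adjustment over all 18468 tested genes, and a gene was called at an adjusted p under 0.05. The SE was derived from the test, as the log2 fold change over the root of the F value, and fold changes carry a prior count of 0.125. CPM use the TMM-scaled library size. Alternatives were other scalings (DESeq2 1.42.0 size factors, upper quartile, cyclic loess in limma 3.58.1), the replicate block, other low-count filters, limma-voom and DESeq2's Wald test, a fit restricted to both groups of a comparison, stricter thresholds (adjusted p of 0.01, a fold change of 1.5), mitochondrially encoded genes left out, and each library left out. The test was run on simulated counts with the same dispersion for every gene, few changed genes and no replicate pairing. That check does not cover data where about 50% of genes are called and libraries of 1 number deviate together.

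The members and lists were chosen with earlier results of these data known. Values per library are given for the 6 largest rises and falls per comparison among called members of at least 5 CPM, the smallest adjusted p of each role group for PXN siRNA under vehicle, and related gene pairs or sets. Wider lists name up to 3 called genes with the smallest p per list and comparison. Replicate numbers are shared by the groups, and the labels do not say what they mark. Libraries with the same number deviated together from their group means (correlation over all tested genes 0.125 to 0.503, log2 of CPM plus 0.5, every pair over the limit of 0.1), and the numbers were taken as pairs, so blocked values stand beside results whose call they change. With CPM at a prior count of 2 the lowest correlation, for PXN siRNA under DHT, was 0.0769, under that limit. Positions and lengths came from GENCODE 29 and promoters from RefSeq. Python 3.11.15 and matplotlib 3.10.9 drew the figures.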

Additional observations from a re-analysis of the deposited data

How the results depend on the processing

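Against a fold change of 1.5, 8 members passed with PXN siRNA in each comparison, 2 higher and 6 lower, among them 5 enzymes lower and 2 HIF targets higher in each. Of all 18468 tested genes 1957 passed so under vehicle and 2234 under DHT, and 55.5% and 58.4% of those were higher. Leaving out each library gave 24 to 28 members called with PXN siRNA under vehicle and 23 to 26 under DHT, 13 to 14 and 12 to 15 enzymes lower, and 3 to 5 and 3 to 4 HIF targets higher. All genes called in those fits came to 7796 to 9431 under vehicle and 8276 to 9890 under DHT. Without the 4 libraries numbered 1, an alternative chosen after seeing the data, 5 HIF targets were higher under DHT. With the replicate block the paired fits called 30 members with PXN siRNA under vehicle (8 higher, 22 lower) and 30 under DHT (7 higher, 23 lower), and the block changed no call other than those given beside their genes. Of all 18468 tested genes the block called 10628 under vehicle and 10869 under DHT. The 4 calls for DHT with non-specific siRNA became 2 with only the groups compared, 10 with the replicate block, 2 at an adjusted p of 0.01, 0 against a fold change of 1.5, and 2 to 7 with each library left out, 7 without the first DHT library of non-specific siRNA and 2 without the second or the third vehicle library of non-specific siRNA or the third of PXN siRNA. All genes called for DHT with non-specific siRNA went from 900 to 690 with only the groups compared and 2236 with the block. They came to 406 at an adjusted p of 0.01 and 79 against a fold change of 1.5. For DHT with PXN siRNA the 0 calls became 1 with no low-count filter, 1 with DESeq2 and 2 with the replicate block, where all genes called went from 34 to 188, 143 and 346. PFKM under DHT turned to 0.0345 on the log2 scale with cyclic loess, and the cause was not tested. Of the called members, 21 of 25 with PXN siRNA under vehicle, 18 of 24 under DHT and 2 of 4 for DHT with non-specific siRNA kept their call in all of these settings other than the stricter thresholds. Another gene length moved 49 of 52 group ratios by more than the spread between replicates and carried 6 across 1. Members with few counts, CA9 and SLC2A3 above all, are limited by depth.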
